A study of Mus musculus with 6 samples.

Results

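The genes described here are 9 genes of the cell-cell junctions of epithelia: the classical cadherins Cdh1 (ENSMUSG00000000303), Cdh2 (ENSMUSG00000024304) and Cdh11 (ENSMUSG00000031673), the catenins Ctnna1 (ENSMUSG00000037815), Ctnnb1 (ENSMUSG00000006932) and Ctnnd1 (ENSMUSG00000034101), and the tight junction genes Tjp1 (ENSMUSG00000030516), Ocln (ENSMUSG00000021638) and Cldn1 (ENSMUSG00000022512). They were chosen by symbol, and all 9 were found among the 56940 genes of the count files. RNA was sequenced from mouse lens capsules in a model of cataract surgery, in which the fiber cell mass is taken out of the lens and the capsule stays in the eye with its lens epithelial cells. The capsules of 3 libraries were taken 72 h after the operation and those of the 3 other libraries at 0 h. All 6 libraries came from C57BL/6 mice labelled wildtype, each from 5 pooled capsules, and the age and sex of the mice were not given in the labels. A tag, RUNX_Cre_N, stands in each description without explanation. Both eyes of an animal were operated on, with 72 h between them, so that the intervals could share animals. Which capsules went into which pool is not stated.

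Cadherins are calcium-dependent adhesion proteins that bind the same kind of cadherin on the neighbouring cell. In the cytoplasm, beta-catenin and p120-catenin bind the cadherin tail, and alpha-catenin links beta-catenin to actin, which together make the adherens junction. Tight junctions lie nearer the cell apex, where claudins and occludin seal the space between cells and the scaffold ZO-1 ties them to actin. Lens epithelium carries both E-cadherin (Cdh1) and N-cadherin (Cdh2), and loss of E-cadherin is a classical sign of epithelial-mesenchymal transition, in which Snail and Zeb proteins bind E-box sequences near its start.

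The E-box CAGGTG, searched on both strands in the 250 bases before annotated starts (RefSeq, GRCm38.p6), is shown because it is the sequence that those repressors bind. The search covered 8 such windows of the sequence table, for 5 of the 9 genes (Ctnnb1, Ctnnd1, Tjp1, Ocln and Cldn1). Cdh1, Cdh2, Cdh11 and Ctnna1 were not searched. The motif was found in 1 of the 8, that of the second start of Ocln, and in 17.2% of the 32851 windows of that length in the table. The matches begin 213 and 68 bases before that start. A match is a description of the letters only. Both are shown from the minus strand, 5′ to 3′, with the motif in capitals, at chr13:100552696-100552721 and chr13:100552551-100552576:
Ocln, distal match: atcggagtttCAGGTGaatgggtcac
Ocln, proximal match: aggggctcggCAGGTGggtcccagcg

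Counts in genes ranged from 8453450 to 8945397 in the 72 h libraries and from 11338820 to 12432688 in the 0 h libraries. All 8 markers of lens epithelium on the list used were detected in every library. Their summed level was 10150 to 18794 CPM (counts scaled to the library size) at 72 h and 78402 to 83588 CPM at 0 h, most of it from alpha crystallins, and 6 of the 8 were called lower. The 2 not called, named after their values were seen, were Pax6 (log2 change −0.09 ± 0.11 SE) and Six3 (−0.19 ± 0.11). The sum therefore does not stand for each marker. The 6 lens fiber markers summed to 1256 to 2620 CPM at 72 h and 12973 to 14574 CPM at 0 h, and all 6 were called lower. Markers of surface epithelium (keratins and other genes of cornea and conjunctiva) set 72 h replicate 3 apart. Their 12 markers summed to 5487 CPM there, against 15.9 and 124 CPM in the other 72 h libraries and 26.2 to 60.8 CPM at 0 h, and at most 3 of them were at 0 in any library. The 10 macrophage and monocyte markers summed to 137 to 328 CPM at 72 h and 27.6 to 40.5 CPM at 0 h. The 7 fibroblast markers summed to 840 to 1725 CPM at 72 h and 246 to 339 CPM at 0 h. Of the 6 fibroblast markers tested, 5 were called higher and 1 lower. That lower gene was Pdgfra, which averaged 77.2 CPM at 72 h and 227 CPM at 0 h, most of the 0 h sum. The 6 endothelial markers stayed between 7.41 and 19.4 CPM in all libraries. The 6 neutrophil markers summed to 20.7 to 44.5 CPM at 72 h and 0.931 to 1.58 CPM at 0 h. Of these, 2 were tested and both were called higher. The 6 markers of pigmented epithelium and melanocytes summed to 17.2 to 63.6 CPM at 72 h and 40.0 to 77.2 CPM at 0 h, with 2 called lower. Values of the 9 genes without 72 h replicate 3 are therefore given where they move a call or the size of a change.

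All 9 genes passed the filter on low counts. Ctnna1 and Ctnnd1 were called higher at 72 h, Cdh1 and Tjp1 were called lower, and the other 5 were not called (edgeR's quasi-likelihood test, adjusted p under 0.05). The 4 called genes of 9 stand beside 38.5% of the 15407 genes tested. The 2 higher genes are 22.2% of the 9, beside 21.0% of all tested genes, and the 2 lower genes are 22.2%, beside 17.5%. The count of calls was thus near that of genes at large. For 6 of the 9 genes the ranges of the 2 groups were apart, beside 53.5% of all tested genes. The median log2 change was −0.11 for the 9 genes and −0.02 for all tested genes, and the median of its absolute value was 0.83 and 0.61.

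**Figure D1:**
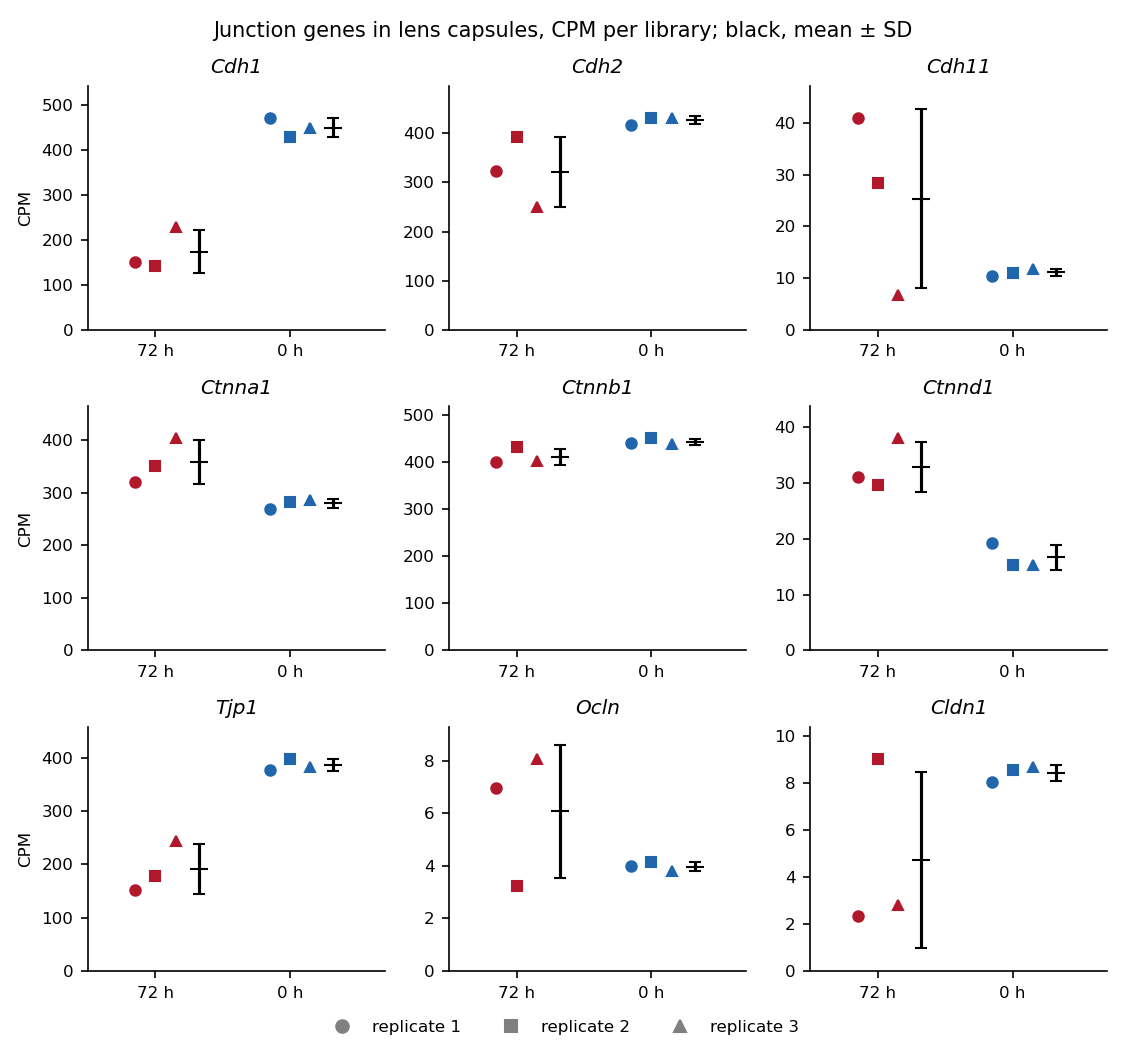
Level of each gene in CPM in the 72 h libraries (red) and the 0 h libraries (blue), 1 point per library with a symbol for each replicate, and the mean ± SD in black (n = 3 each). Cdh1 and Tjp1 lie lower at 72 h in every library. Every gene has a larger SD at 72 h than at 0 h, and the groups overlap for Cdh11, Ocln and Cldn1.

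Cdh1 encodes E-cadherin, the main cadherin of epithelial adherens junctions. It was at 151, 142 and 228 CPM in the 72 h libraries, against 472, 429 and 449 CPM in the 0 h libraries. Every 72 h library lay below every 0 h library, and the highest of them was 72 h replicate 3. The mean was 174 ± 47.6 CPM at 72 h and 450 ± 21.1 CPM at 0 h (SD, n = 3 each), 2.59-fold lower at 72 h (log2 change −1.37 ± 0.17 SE, adjusted p = 0.000216). Without 72 h replicate 3 the change was −1.61 ± 0.09 (adjusted p = 8.7e-09). Surface epithelium also makes E-cadherin, and its markers were high in that library, but their part in this value was not tested. In these bulk libraries fewer cells of a type and less RNA per cell cannot be told apart.

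Cdh2 encodes N-cadherin, the cadherin that lens fibers share with neurons and mesenchymal cells. Its level was 324, 392 and 250 CPM at 72 h and 417, 431 and 431 CPM at 0 h. The groups did not overlap, and all 3 values at 72 h were lower. The difference was small and missed the threshold, with a log2 change of −0.40 ± 0.15 and an adjusted p of 0.0529 (0.00714 to 0.139 over 15 alternative settings, 7 of which called it lower). The 95% interval of the fold change was 0.602 to 0.948. The log2 change was negative in each of these alternatives, and was −0.24 ± 0.09 without 72 h replicate 3 (adjusted p = 0.0551) and −0.57 without 72 h replicate 2 (adjusted p = 0.00755). Lens fiber markers were also lower in every 72 h library, and their part in the values of Cdh2, Cdh1 and Tjp1 was not tested.

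Cdh11 encodes cadherin-11, a type II cadherin of mesenchymal and bone-forming cells. It was at 41.0, 28.4 and 6.73 CPM at 72 h and at 10.4, 11.1 and 11.8 CPM at 0 h. The first 2 libraries at 72 h lay above all 0 h libraries and 72 h replicate 3 lay below them. The gene was not called over all libraries (log2 change 1.19 ± 0.57, adjusted p = 0.146). Without 72 h replicate 3 it was 3.15-fold higher (log2 change 1.66 ± 0.22, adjusted p = 2.9e-05). It was also called by DESeq2 on all 6 libraries (adjusted p = 0.0381), and over the 15 alternatives adjusted p ran from 2.9e-05 to 0.403.

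**Figure D2:**
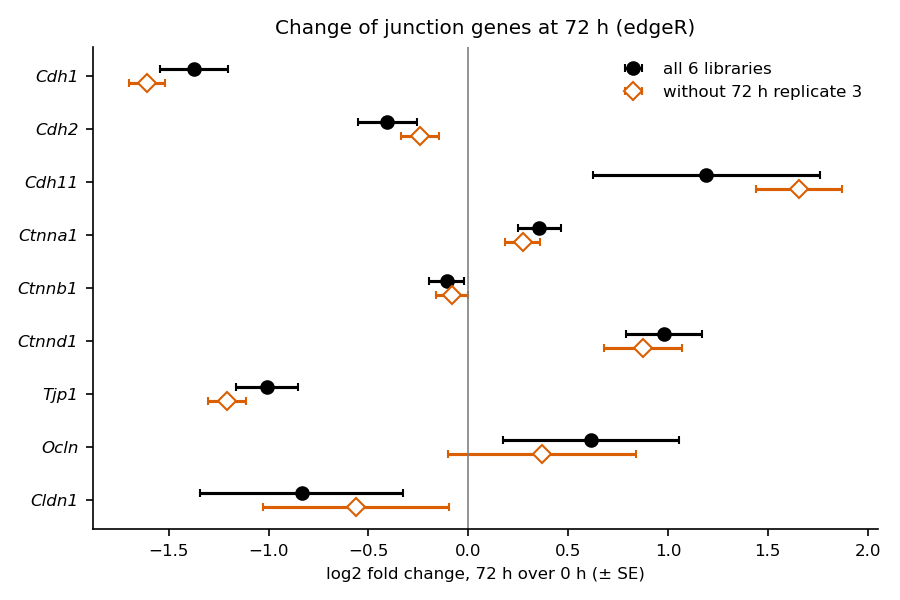
Log2 fold change of the 9 genes, 72 h over 0 h, with its SE, from all 6 libraries (filled circles) and without 72 h replicate 3 (open diamonds). Cdh1 and Tjp1 lie near −1.37 and −1.01 and move further down without that library, Cdh11 is at 1.66 without it and 1.19 with it, and no gene changes side.

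The balance between cadherins was compared within each library, which needs no library size. The log2 ratio of Cdh1 to Cdh2 counts was −1.10, −1.47 and −0.13 at 72 h, against 0.18, −0.01 and 0.06 at 0 h. The ratio was lower in every 72 h library, least so in replicate 3. The means differed by −0.98 (exact permutation p = 0.1, two-sided, the smallest that 3 against 3 can give; 0.3 adjusted over 3 ratios), and by −1.36 without 72 h replicate 3. The log2 ratio of Cdh11 to Cdh2 was −2.98, −3.78 and −5.20 at 72 h and −5.32, −5.28 and −5.18 at 0 h. The groups overlapped through 72 h replicate 3 (difference 1.27, exact permutation p = 0.2, adjusted 0.3), and the difference was 1.88 without that library.

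To compare genes with each other, levels were divided by the exon length of the gene (CPM per kilobase). The summed level of 18 classical cadherins was 101, 113 and 101 CPM per kilobase at 72 h and 177, 169 and 176 at 0 h. Cdh1 made up 32.6%, 27.4% and 49.5% of that sum at 72 h and 58.2%, 55.4% and 55.6% at 0 h. Its share was lower in all 3 libraries at 72 h, and 72 h replicate 3 stood closest to the 0 h libraries. Cdh2 made up 39.7%, 43.0% and 30.7% at 72 h and 29.2%, 31.6% and 30.3% at 0 h, so that its share was higher in 72 h replicates 1 and 2 and lay within the 0 h range in replicate 3. The 15 cadherins other than Cdh1, Cdh2 and Cdh11 held 23.1%, 26.7% and 19.0% at 72 h and 11.9%, 12.3% and 13.3% at 0 h, without overlap. These are shares of a sum that was lower in every 72 h library, so a higher share need not be a higher level. The level of Cdh2 itself was lower in every 72 h library, and the summed level of the 15 was not compared.

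**Figure D3:**
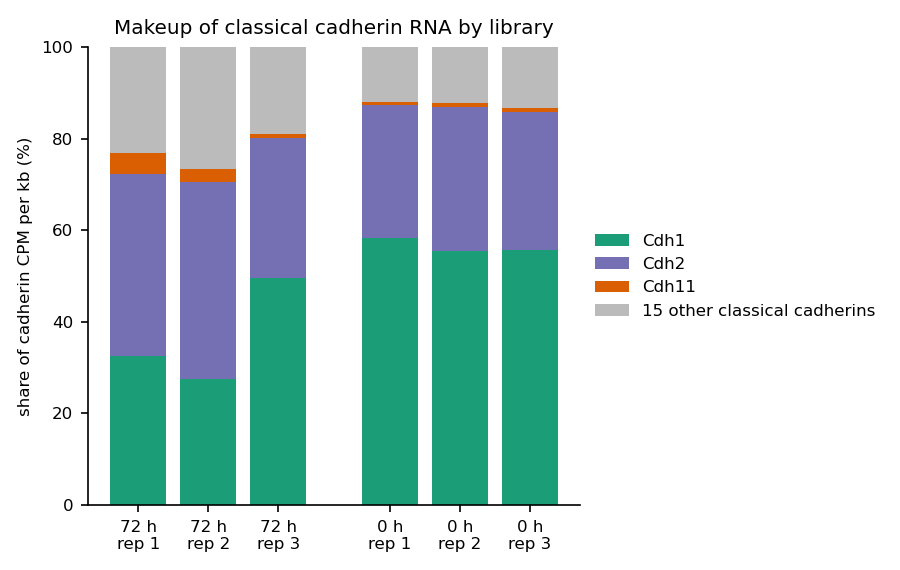
Share of the summed CPM per kilobase of 18 classical cadherins held by Cdh1, Cdh2, Cdh11 and the 15 others, in each 72 h library (left) and each 0 h library (right). Cdh1 holds 27.4% to 49.5% at 72 h and 55.4% to 58.2% at 0 h, and the grey part is larger in all 3 libraries at 72 h. Bars show shares and not levels, and the sum they divide was lower in every 72 h library.

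Of those 15 other classical cadherins, 11 were tested, of which 5 were higher and 3 lower at 72 h. The share called higher was 45.5%, beside 21.0% of all tested genes, and the share called lower was 27.3%, beside 17.5%. The list's median log2 change was −0.57, and its median absolute change was 2.77, beside 0.61 over all tested genes. Cdh15, the M-cadherin of muscle cells, was at 16.2, 22.1 and 18.7 CPM at 72 h and at 0, 0.254 and 0.158 CPM at 0 h (log2 change 6.98 ± 0.56, adjusted p = 1.2e-05). Cdh6, a type II cadherin of kidney and neural crest cells, averaged 36.2 ± 8.76 CPM at 72 h and 4.61 ± 1.88 CPM at 0 h (2.97 ± 0.34, adjusted p = 9.8e-05). The other 3 that rose were Cdh10, Cdh22 and Cdh24, named after their values were seen. Without 72 h replicate 1, or without any single 0 h library, 3 were called higher (Cdh15, Cdh6 and Cdh22). Fewer of all tested genes were also called in those fits (27.5% to 33.5%, beside 38.5%).

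Cdh3, the P-cadherin of basal epithelia, was at 1.04, 4.97 and 6.36 CPM at 72 h and at 29.3, 25.9 and 29.3 CPM at 0 h (−2.77 ± 0.50, adjusted p = 0.00282). It was low in all 72 h libraries, also in that with surface epithelial markers. Cdh9, a type II cadherin of neurons, had 0 counts in all 72 h libraries and 105 counts over the 0 h libraries, at least 24.7-fold lower against a floor of 3 counts over the group (adjusted p = 0.0018). Cdh4 (R-cadherin), named after its values were seen, was called lower too, but not without 72 h replicate 1, without any single 0 h library or with no filter on low counts. In the same libraries the 7 photoreceptor markers summed to 52.0 to 147 CPM at 72 h and 644 to 1580 CPM at 0 h. Their part in the falls of cadherins that neurons also make was not tested.

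None of the 3 catenins was called lower at 72 h. Ctnna1 encodes alpha-E-catenin, the link to actin, and was at 320, 351 and 404 CPM at 72 h and 270, 283 and 287 CPM at 0 h. All 72 h libraries lay above all 0 h libraries, by a small margin. The mean of 358 ± 42.4 CPM at 72 h was 1.28-fold that of 280 ± 8.87 CPM at 0 h (log2 change 0.36 ± 0.11, adjusted p = 0.0247). Without 72 h replicate 3, the highest library, the log2 change was 0.27 ± 0.09 (adjusted p = 0.0209). The call was lost without 0 h replicate 1 (log2 change 0.32, adjusted p = 0.12), 0 h replicate 2 (0.35, adjusted p = 0.0892) or 0 h replicate 3 (0.37, adjusted p = 0.0749), and with upper quartile normalization (0.27, adjusted p = 0.0648), in a range of 0.0104 to 0.12 over the alternatives. In the fits without a 0 h library, 27.5% to 27.8% of all tested genes were called, beside 38.5% with all libraries.

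Its neural paralog Ctnna2 (alpha-N-catenin), named after its values were seen, averaged 30.5 ± 15.4 CPM at 72 h and 211 ± 10.5 CPM at 0 h (−2.79 ± 0.41, adjusted p = 0.00367). Of the summed CPM per kilobase of the 3 alpha-catenin genes, Ctnna1 held 95.6%, 89.3% and 93.2% at 72 h and 58.3%, 57.7% and 60.4% at 0 h. The sum itself was 52.1, 61.2 and 67.4 CPM per kilobase at 72 h and 72.1, 76.3 and 74.0 at 0 h. Ctnna1 thus held more of the alpha-catenin RNA in every 72 h library, while the summed level was lower there. These shares, like those of the other families, were chosen with the values known.

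Ctnnb1 encodes beta-catenin, which binds cadherins and also carries Wnt signals to the nucleus. It was at 399, 431 and 404 CPM at 72 h and 441, 451 and 438 CPM at 0 h. The 72 h values were lower without overlap, but by little, and the gene was called neither here (log2 change −0.11 ± 0.09, adjusted p = 0.372) nor in any of the 15 alternatives. The 95% interval of its fold change was 0.810 to 1.06. Counts of Ctnnb1 carry an uncertainty, since 14.6% of its exon bases lie opposite exons of Ulk4 on the other strand and the strand setting of the counting was not given. Ulk4 itself was at 9.70 to 11.7 CPM at 72 h and 4.97 to 9.17 CPM at 0 h. Of the summed CPM per kilobase of Ctnnb1 and its relative Jup (plakoglobin, which desmosomes also use), Ctnnb1 held 90.2%, 90.2% and 75.5% at 72 h and 90.1%, 91.8% and 89.4% at 0 h. The value of 72 h replicate 3 was the lowest.

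Ctnnd1 encodes p120-catenin, which holds cadherins at the cell surface. It had 268, 256 and 311 counts at 72 h and 223, 181 and 195 counts at 0 h, although the 72 h libraries were smaller. In CPM these were 31.0, 29.6 and 38.0 at 72 h and 19.3, 15.3 and 15.4 at 0 h, a clear step between groups (1.97-fold, log2 change 0.98 ± 0.19, adjusted p = 0.00268). The call held in all 15 alternatives. Without 72 h replicate 3, the highest library, the log2 change was 0.87 ± 0.20 (adjusted p = 0.00255). The level of this gene is uncertain, because 61.2% of its exon bases are shared with the gene Gm28635 on the same strand, which was listed at 0 in all 6 libraries. The other 2837 exon bases are its own, and how reads on the shared bases were counted is not stated.

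Tjp1 encodes ZO-1, the scaffold under tight junctions, which is also found at adherens junctions. It was at 152, 178 and 244 CPM at 72 h and 376, 398 and 382 CPM at 0 h. No 72 h library reached the lowest 0 h library, and 72 h replicate 3 was again the highest of its group. The mean was 192 ± 47.0 CPM at 72 h and 386 ± 11.1 CPM at 0 h, 2.01-fold lower at 72 h (log2 change −1.01 ± 0.16, adjusted p = 0.000716). The fall was −1.21 ± 0.10 without 72 h replicate 3 (adjusted p = 2.4e-07), and the call held in all 15 alternatives.

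Ocln encodes occludin, a membrane protein of the tight junction strand, and had 60, 28 and 66 counts at 72 h and 46, 49 and 48 counts at 0 h. In CPM this was 6.95, 3.23 and 8.07 at 72 h and 3.98, 4.15 and 3.79 at 0 h. The values overlapped, with 72 h replicate 2 below all 0 h libraries and the others above them (log2 change 0.61 ± 0.44, adjusted p = 0.307). The 95% interval of the fold change ran from 0.774 to 3.02, which holds both no change and a 2-fold rise. The log2 change was 0.37 ± 0.47 without 72 h replicate 3 (adjusted p = 0.567).

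Cldn1 encodes claudin-1, a sealing claudin of epidermis and other epithelia, and had 20, 78 and 23 counts at 72 h and 93, 101 and 110 counts at 0 h. Its level was 2.32, 9.01 and 2.81 CPM at 72 h and 8.04, 8.55 and 8.68 CPM at 0 h. The 72 h replicates 1 and 3 were far below the 0 h libraries and 72 h replicate 2 was slightly above them. It was not called (log2 change −0.83 ± 0.51, adjusted p = 0.228). Without 72 h replicate 2 it was called lower (−1.72, adjusted p = 0.0105; 0.0105 to 0.462 over all alternatives). Without 72 h replicate 1 the log2 change was −0.51, and without 72 h replicate 3 it was −0.56 ± 0.47 (adjusted p = 0.366). The log2 ratio of Cldn1 to Ocln counts was −1.56, 1.46 and −1.50 at 72 h and 1.01, 1.04 and 1.19 at 0 h, with 72 h replicate 2 above all others (difference −1.61, exact permutation p = 0.4). Without that library the difference was −2.61.

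By CPM per kilobase the order at 72 h was Ctnnb1 (79.2 ± 3.34), Ctnna1 (55.8 ± 6.59), Cdh2 (39.9 ± 8.82), Cdh1 (38.0 ± 10.4), Tjp1 (24.5 ± 6.02), Ctnnd1 (4.49 ± 0.618), Cdh11 (2.85 ± 1.95), Ocln (1.44 ± 0.599) and Cldn1 (0.974 ± 0.771), as mean ± SD. At 0 h it was Cdh1 (98.3 ± 4.61), Ctnnb1 (85.4 ± 1.28), Cdh2 (52.8 ± 1.03), Tjp1 (49.4 ± 1.42), Ctnna1 (43.6 ± 1.38), Ctnnd1 (2.28 ± 0.310), Cldn1 (1.74 ± 0.0693), Cdh11 (1.25 ± 0.0816) and Ocln (0.941 ± 0.0429). With all exon bases counted, E-cadherin was thus the leading transcript at 0 h and the fourth at 72 h. Its place above Ctnnb1 at 0 h is uncertain. For Ctnnb1, 14.6% of exon bases lie opposite Ulk4, and no level without those bases was computed. At 72 h the ranges of Cdh2 and Cdh1 overlapped, as did those of Cdh1 and Tjp1, and of Ctnnd1, Cdh11, Ocln and Cldn1 each with the next. At 0 h no neighbours overlapped. Counted over the 2837 bases not shared with Gm28635, Ctnnd1 would stand at 11.6 ± 1.59 at 72 h and 5.87 ± 0.801 at 0 h, at the same place in both orders.

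Among the other adherens junction genes, which join catenins, nectins and actin linkers, 3 of 18 tested were higher and 6 lower (16.7% and 33.3%, beside 21.0% and 17.5% of all tested genes; median log2 change −0.05). Vcl encodes vinculin, which binds alpha-catenin under tension and also sits in focal adhesions, and averaged 704 ± 11.2 CPM at 72 h and 119.2 ± 9.49 CPM at 0 h (2.56 ± 0.10, adjusted p = 1.3e-07). Pdlim7, an actin-binding adaptor, rose by 1.62 ± 0.11 (adjusted p = 4.6e-06), and Nectin2, named after its values were seen, was the third. Ctnnd2, the neural relative of p120-catenin, averaged 45.0 ± 10.01 CPM at 72 h and 153 ± 3.57 CPM at 0 h (−1.77 ± 0.16, adjusted p = 2.3e-05). Pkp4, a p120-related protein of junctions, averaged 153 ± 30.6 CPM at 72 h and 264 ± 22.5 CPM at 0 h (−0.79 ± 0.15, adjusted p = 0.00236).

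Of 24 tested other tight junction and polarity genes, 3 were higher and 9 lower (12.5% and 37.5%, beside 21.0% and 17.5%; median log2 change −0.36). The polarity scaffold gene Pard3 was among the higher genes (0.61 ± 0.14, adjusted p = 0.00654), as was Cldn12, named after its values were seen. Jam2, a junctional adhesion molecule, was at 16.9, 20.8 and 10.8 CPM at 72 h and 86.2, 78.4 and 99.5 CPM at 0 h, low in every 72 h library (−2.44 ± 0.23, adjusted p = 2.8e-05). Cgnl1, which encodes the junction protein paracingulin, averaged 232 ± 41.6 CPM at 72 h and 425 ± 7.37 CPM at 0 h (−0.87 ± 0.13, adjusted p = 0.000537). The filter removed 16 of the 40 genes of this list, 5 of them with no count in any library.

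Desmosome genes encode the spot junctions that anchor keratin filaments. None of the 7 tested was called with edgeR, DESeq2 or limma voom on all libraries, beside 38.5%, 41.4% and 40.5% of all tested genes. With edgeR 2 of the 7 had an unadjusted p under 0.05, beside 7244 of the 15407 genes tested. Several of them were far higher in 72 h replicate 3 than in the other 72 h libraries, but not Pkp2 (plakophilin-2), at 53.6, 50.6 and 45.5 CPM at 72 h and 46.2, 57.4 and 42.0 CPM at 0 h. Dsp (desmoplakin), named like the other desmosome genes after its values were seen, was at 43.9, 29.9 and 896 CPM at 72 h and at 6.23, 0.762 and 2.21 CPM at 0 h. Without that library Dsp was called 12.2-fold higher (adjusted p = 0.0146) and Pkp1 (plakophilin-1) 6.88-fold higher (adjusted p = 0.0183). Pkp3 (plakophilin-3) did not pass the main filter and was called higher without 72 h replicate 2, a fit that keeps 72 h replicate 3. It was at 1.74, 0.693 and 33.8 CPM at 72 h and 0.259, 0.254 and 0 CPM at 0 h.

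The same library stood apart for other epithelial junction genes. Among genes that averaged 1 CPM or more in 72 h replicates 1 and 2, a floor to which replicate 3 did not count, 5 of 8 desmosome genes and 4 of 22 other tight junction genes were at least 5-fold higher in replicate 3 than in that mean. The share was 1.33% over all such genes, and 8 of 8 such surface epithelium markers reached it. The floor was set after the values were seen. None of the 9 junction genes and none of 10 other classical cadherins reached that ratio. Relative to the other 72 h libraries, replicate 3 held 1.59 times the Ocln, 1.56 times the Cdh1 and 1.47 times the Tjp1 level, but 0.497 times the Cldn1, 0.699 times the Cdh2 and 0.194 times the Cdh11 level. These are values of 1 library against 2, with no test. Fibroblast markers summed to 840 CPM in replicate 3, against 1725 and 1439 CPM in the other 72 h libraries. Macrophage and monocyte markers summed to 137 CPM in replicate 3, against 240 and 328 CPM. The part of these cells or of surface epithelium in the ratios was not tested.

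**Figure D4:**
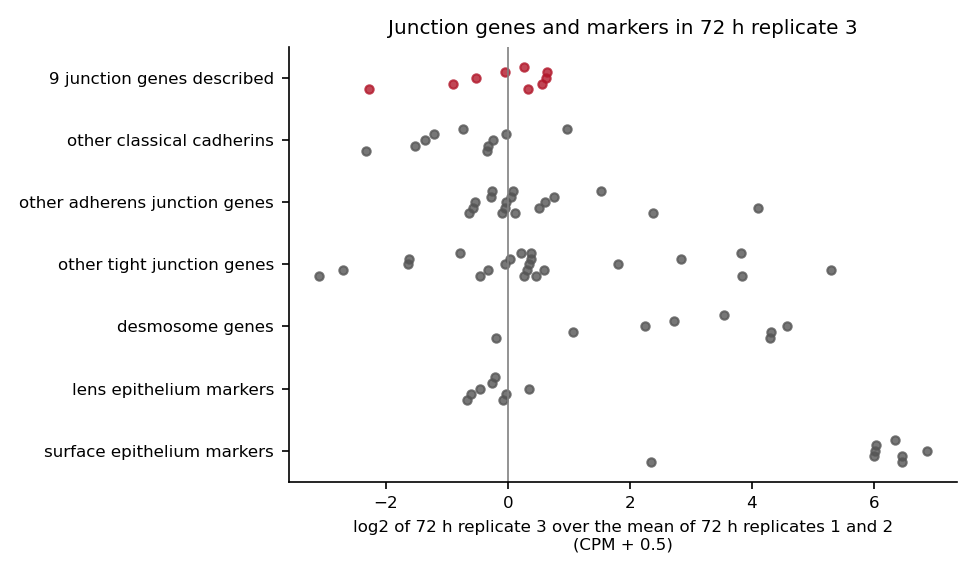
Log2 ratio of 72 h replicate 3 over the mean of 72 h replicates 1 and 2, on CPM with 0.5 added, for genes that averaged 1 CPM or more in replicates 1 and 2, 1 point per gene. Desmosome genes and surface epithelium markers lie mostly far to the right, with Krt5 at 6.86, while the 9 junction genes (red) run from −2.28 for Cdh11 to 0.64 for Cdh1.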

How the data were processed

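The authors deposited raw read counts per Ensembl gene, 1 file per library, with no normalization. Per the submitters' processing notes HISAT2, HTSeq, edgeR and the build GRCm39 were used, and the sources used here do not give versions, annotation release or strand setting. The kit was Takara SMARTer Stranded Pico v2, per the labels' protocols. The 5 closing lines, of reads not counted for any gene, were left out. They held 48.0% to 51.7% of reads at 72 h and 41.9% to 45.15% at 0 h. Symbols (51947 identifiers matched), exon lengths and overlaps came from a GENCODE annotation of GRCm38, so gene coordinates are not given.

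Genes were kept by filterByExpr (minimum count 10, total 15). TMM-scaled counts were tested for time alone with edgeR 4.0.16 (robust quasi-likelihood, two-sided, Benjamini-Hochberg over 15407 genes, threshold 0.05) in R 4.3.3, and the script was tested on simulated data. Standard errors were derived from the F statistic, and log2 fold changes (72 h over 0 h) used a prior count of 0.125. CPM divide each count by its library size after TMM. Ratios within a library used counts plus 0.5 and an exact permutation test. The edgeR p-values set the difference between intervals against the spread between pools, which was estimated with information from all genes. Those of the ratios place the observed difference among all regroupings of the 6 libraries. Both treat the pools as independent, although the intervals could share animals. DESeq2 1.42.0, limma voom 3.58.1, other scalings and filters, left-out libraries and a replicate block were alternatives.

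The genes and lists were chosen with earlier results of these data known. The text names all 9 genes and, from each of 4 lists of other junction genes, the called genes with the smallest p, up to 2 in each direction, of which 1 is not reported here. Of 164 symbols on these and the marker lists, Arvcf and Lim2 were not analysed here.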

Additional observations from a re-analysis of the deposited data

How the results depend on the processing

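No log2 change of the 9 genes and no ratio changed sign under any alternative run. Cdh1, Tjp1 and Ctnnd1 kept their calls in all 15 alternatives, and Ctnnb1 and Ocln were never called. Cdh2 was called lower with upper quartile normalization (log2 change −0.49), no filter (−0.41), the stricter filter of 1 CPM in all 6 libraries (−0.41), DESeq2 (−0.39), limma voom (−0.43) and the replicate block (−0.43). Cdh11 was called with DESeq2 (1.20). Ctnna1 lost its call with upper quartile normalization (0.27), where 1 of the 9 genes was higher. With 1 library left out, the ranges were −0.57 to −0.24 for Cdh2, 0.66 to 1.66 for Cdh11, 0.27 to 0.42 for Ctnna1 and −1.72 to −0.51 for Cldn1. Left-out libraries gave 1 to 3 higher and 2 to 4 lower among the 9 genes, 3 to 6 higher among other classical cadherins and 0 to 2 higher among desmosome genes. Over all tested genes, 27.5% to 27.8% were called without 1 of the 0 h libraries, beside 38.5% with all 6. Without 72 h replicate 1, 2 or 3 the shares were 33.5%, 36.1% and 41.6%. Other classical cadherins called higher numbered 3 with the stricter filter, under which only 6 were tested, limma voom or the replicate block. Deviations from the group means correlated at −0.04, 0.06 and −0.01 between libraries of the same replicate number. Not every library correlated best with its own number. With 3 libraries per group these values cannot settle whether the pools shared animals. With the replicate block 2921 genes were higher and 2507 lower, against 3230 and 2700 without it, and no other count moved by over 1.5 times. The cause of these shifts was not tested. The counts of Ocln (28 to 66 at 72 h, 46 to 49 at 0 h) and Cldn1 (20 to 78 at 72 h, 93 to 110 at 0 h) were low, and depth as a limit on them was not tested.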
